A study of Mus musculus with 4 samples.

Results

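Genes of cholesterol synthesis, sterol uptake and SREBP control were followed in differentiating C2C12 cells under inhibitors of LSD1, a histone demethylase. The list held 28 genes, chosen by exact gene symbol and ordered by pathway step. A probe set carrying the gene's symbol alone was found for 27 of them, out of 18193 genes with such a probe set on the array. For Acat2, the cytosolic thiolase at the start of the pathway, no such probe set was listed, and it was not analysed here. Where a gene had several probe sets, the brightest on average over the 4 arrays stood for it. All 27 reached the median gene's mean signal (178.8) and entered the test among 9097 genes.

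C2C12 myoblasts, an established mouse line, fuse into myotubes when serum is lowered. Per the labels, cells were grown in DMEM with 25 mM glucose and 10% fetal bovine serum, and differentiation was induced in DMEM with 25 mM glucose and 2% horse serum. RNA was taken after 48 h from cells treated with tranylcypromine (TC, 1 array), S2101 (1 array) or vehicle (2 arrays). TC is an amine oxidase inhibitor, and S2101 is known here by its code name. The labels give no dose, so the compounds cannot be set side by side at matched doses. Nor do they say whether the vehicle arrays are separate cultures. The p-values therefore reflect the spread of these arrays alone, and that spread may be technical. Every value of TC or S2101 rests on 1 array, and precision is limited by how few arrays there are.

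Cells make cholesterol from acetyl-CoA through mevalonate, isoprenoid diphosphates, squalene and lanosterol. The SREBP transcription factors, held in the endoplasmic reticulum by SCAP and the INSIG proteins while sterol is plentiful, are cut and released to the nucleus when sterol falls. There they raise the genes of this pathway, usually together with NF-Y, which binds CCAAT boxes, and with Sp1, which binds GC boxes. Insig1 is itself an SREBP target, and Srebf1 is also a target of the LXR sterol receptors.

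Upstream sequences of the list were looked up because its genes moved together in the results below. RefSeq promoter windows on GRCm38.p6 were at hand for 23 of the 28 genes, in 31 windows since some genes have several starts. Fdps, Fdft1, Sqle, Stard4 and Npc1 had none in the table. The 150 bases before the transcript start are shown for 6 genes. Hmgcs1 is shown for its sterol regulatory element, Mvd, Idi1 and Tm7sf2 as the enzymes with the largest increases under TC, Lbr as the enzyme of the same step as Tm7sf2 that did not rise, and Insig1 as the feedback regulator. Sequences run 5′ to 3′ on the strand of the gene. Capitals mark TCACNCCAC (sterol regulatory element), CCAAT (NF-Y box), GGGCGG (GC box) and CACGTG (E-box) on either strand, so that ATTGG is a CCAAT box and CCGCCC a GC box on the opposite strand. No capitals of different motifs overlap in these windows.
Hmgcs1, chr13:119690201-119690350, plus strand: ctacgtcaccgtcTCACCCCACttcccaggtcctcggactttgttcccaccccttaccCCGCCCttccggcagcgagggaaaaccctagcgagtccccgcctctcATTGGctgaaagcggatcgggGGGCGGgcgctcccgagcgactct
Mvd, chr8:122443423-122443572, minus strand: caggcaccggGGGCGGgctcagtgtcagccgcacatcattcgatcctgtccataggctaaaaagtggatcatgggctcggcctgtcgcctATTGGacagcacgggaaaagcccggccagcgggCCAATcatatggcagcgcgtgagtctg
Idi1, chr13:8885456-8885605, plus strand: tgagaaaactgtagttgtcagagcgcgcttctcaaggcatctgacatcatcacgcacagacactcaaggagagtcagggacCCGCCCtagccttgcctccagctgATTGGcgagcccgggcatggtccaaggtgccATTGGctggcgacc
Tm7sf2, chr19:6067851-6068000, minus strand: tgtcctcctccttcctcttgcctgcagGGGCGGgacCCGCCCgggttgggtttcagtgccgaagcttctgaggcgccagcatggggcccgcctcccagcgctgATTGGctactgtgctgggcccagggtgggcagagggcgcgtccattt
Lbr, chr1:181842402-181842551, minus strand: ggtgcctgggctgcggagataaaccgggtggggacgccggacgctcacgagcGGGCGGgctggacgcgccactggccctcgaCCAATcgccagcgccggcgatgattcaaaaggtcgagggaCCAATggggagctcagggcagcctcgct
Insig1, chr5:28071262-28071411, plus strand: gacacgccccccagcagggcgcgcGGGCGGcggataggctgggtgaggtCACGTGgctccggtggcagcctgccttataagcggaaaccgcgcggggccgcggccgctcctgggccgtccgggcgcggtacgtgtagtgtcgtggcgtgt

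Over 250 bases before the start, a CCAAT box was found in 22 of the 31 windows (71%), against 33.8% of all 32851 promoter windows in the table. A GC box was found in 24 windows (77.4%), against 32.7% of all, and an E-box in 5 (16.1%), against 6.02% of all. TCACNCCAC was found in 1 window, that of Hmgcs1 at -137 to -129, against 1.05% of all. Mvd and Idi1 each carried 2 CCAAT boxes within 100 bases of the start, Tm7sf2 carried 1 at -47, and Lbr carried 2 at -68 and -28. A match is a description of the letters, and it was found in genes that rose and in genes that did not.

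**Figure D1:**
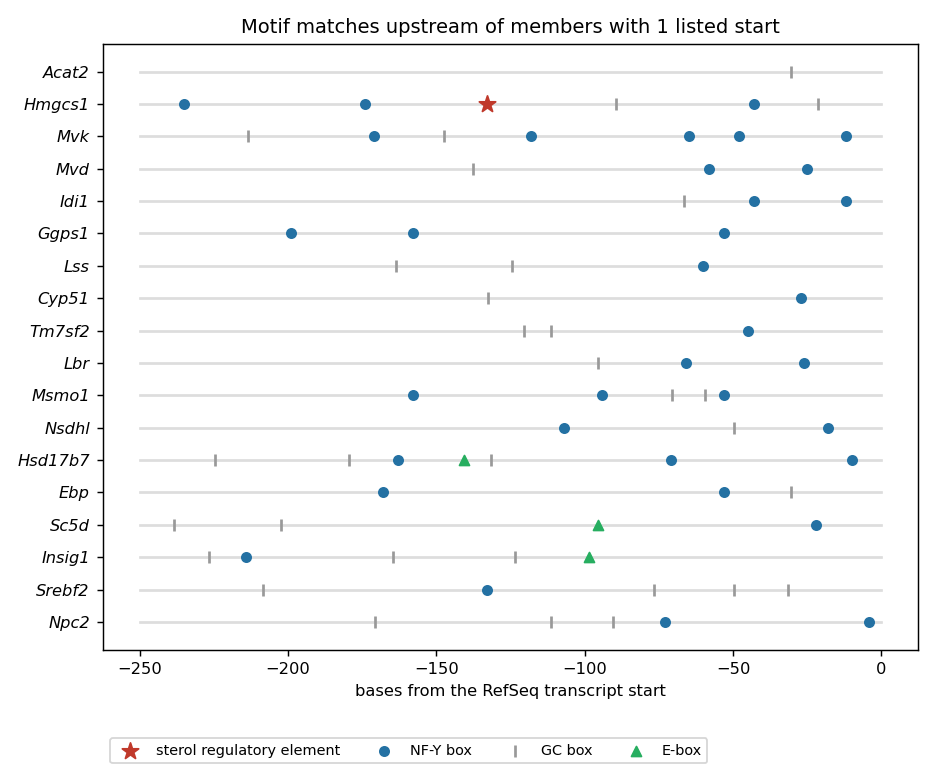
Positions of motif matches in the 250 bases before the RefSeq transcript start (x axis, bases) for the 18 genes of the list with 1 listed start, in pathway order from top to bottom; each symbol is 1 match on either strand. A CCAAT (NF-Y) box lies in 17 of the 18 windows, in 15 of them within 100 bases of the start, while the sterol regulatory element lies in that of Hmgcs1. Of all 32851 promoter windows, 33.8% hold a CCAAT box in the 250 bases and 18.9% in the last 100.

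Most of the pathway was higher with TC. Of the 27 genes, 19 rose and 8 did not pass the test, and none fell (limma, Benjamini-Hochberg adjusted p under 0.05 over all 9097 genes). Over all genes tested, 4.36% were higher and 3.81% lower. The median difference of the list was 0.62 on the log2 scale, where log2(signal + 50) was used, against 0.02 over all genes tested. The TC array lay above both vehicle arrays in 24 of the 27 genes, against 43% of all genes. In a culture, more RNA per cell and more cells of a kind that expresses the gene cannot be told apart. These calls depend on the filter on dim genes, which also sets how many genes the p-values are adjusted over, and on the trend in the variance. With no filter on dim genes 1 of the 27 passed, and without an intensity trend in the variance 2 passed, with the differences unchanged. Those of the 19 that then missed the threshold had adjusted p from 0.0548 to 0.193 without the filter. Without the trend the range was 0.0512 to 0.133 (limma).

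S2101 raised fewer genes of the list past the test. With S2101, 8 of the 27 rose, 19 did not pass and none fell, where 3.37% of all genes were higher and 3.33% lower. The median difference of the list was 0.28, against 0.01 over all genes tested. The S2101 array lay above both vehicle arrays in 26 of the 27 genes, against 39.2% of all genes. With no filter on dim genes 0 passed, and without an intensity trend 2 passed (limma). The adjusted p of the 8 then ran from 0.0549 to 0.225 without the filter. Without the trend, those of the 8 that missed the threshold had 0.0796 to 0.200 (limma). In the filtered fit 14 of the 27 had an unadjusted p under 0.05, as did 1893 of all 9097 genes (limma). Both comparisons use the same vehicle arrays, so they are not independent of each other.

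**Figure D2:**
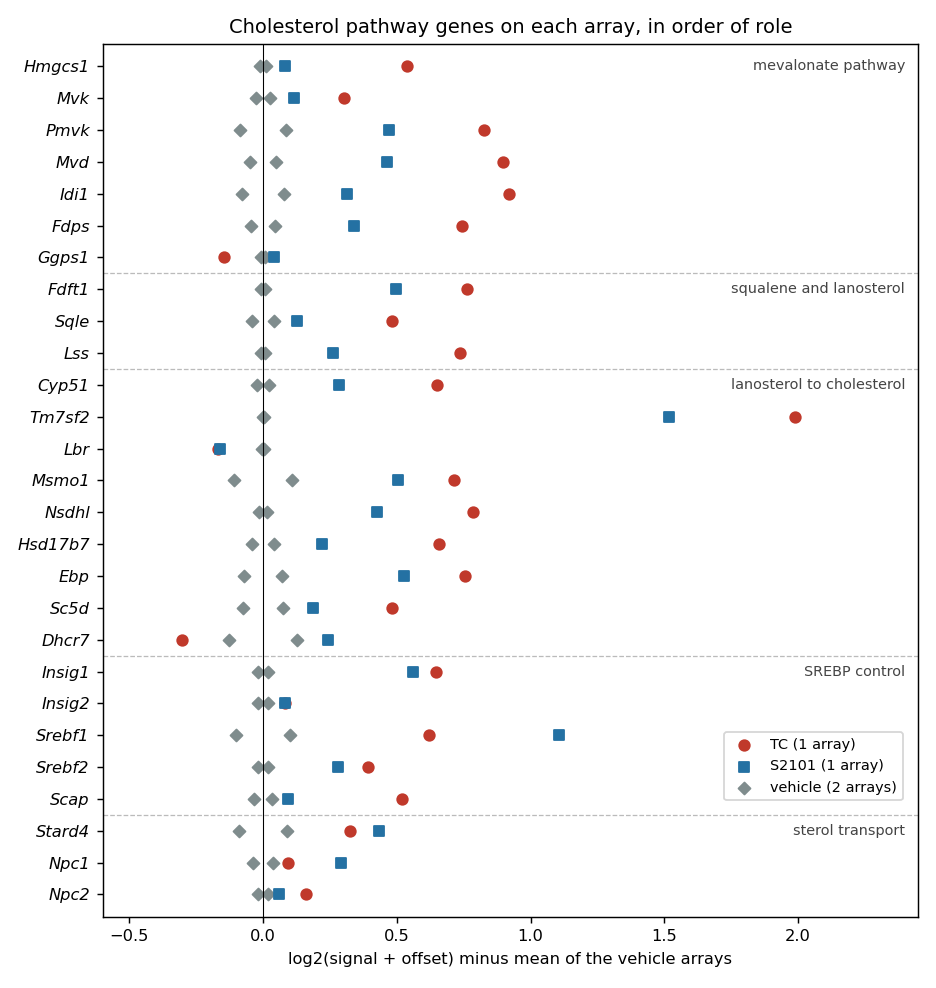
Log2(signal + 50) of each gene on each array minus the mean of the vehicle arrays (x axis), with genes in pathway order from top to bottom: TC (red circles), S2101 (blue squares) and the vehicle arrays (grey diamonds). TC lies above both vehicle arrays in 24 genes and S2101 in 26, and Tm7sf2 stands at 1.99 and 1.52.

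The early enzymes of the mevalonate pathway rose with TC in 5 of 7 cases. Hmgcs1, which condenses acetoacetyl-CoA to HMG-CoA, had signals of 15571 with TC and 11319.7 with S2101, against 10625 and 10783 on the vehicle arrays. Its difference was 0.54 ± 0.07 with TC (SE; adjusted p = 0.00173, limma) and 0.08 ± 0.07 with S2101 (0.556). The TC array alone stood apart, while S2101 lay close to the vehicle arrays. Its other bright probe sets differed by 0.52, 0.40 and 0.05 with TC.

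Pmvk, the kinase that makes mevalonate diphosphate, had signals of 1074 with TC and 830.0 with S2101, against 623 and 547 with vehicle. Its difference was 0.83 ± 0.13 with TC (adjusted p = 0.00574, limma) and 0.47 ± 0.13 with S2101 (0.0626). Mvd decarboxylates that product to isopentenyl diphosphate. It read 757 with TC and 548 with S2101, against 369 and 398 with vehicle, a difference of 0.90 ± 0.14 with TC (adjusted p = 0.00589, limma) and 0.47 ± 0.14 with S2101 (0.0919). In each of these genes the arrays fell in the order TC, S2101, vehicle, without overlap.

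Idi1, the isomerase that balances the isoprenoid units, rose with TC. The arrays gave 6969.9 with TC and 4566 with S2101, against 3468 and 3873 with vehicle. The difference was 0.92 ± 0.09 with TC (adjusted p = 4.06e-04, limma) and 0.31 ± 0.09 with S2101 (0.0625). Its other probe set did not keep this order, with 3088 on the TC array and 3405.7 on the S2101 array, against 2301 and 2968 with vehicle. The call with S2101 passed with a stricter filter on dim genes (adjusted p = 0.0496, limma) and with averaged probe sets (0.0125).

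Fdps, which joins isoprenoid units to farnesyl diphosphate, was the only gene of the early pathway past the test with both compounds. It had signals of 10652 with TC and 8056 with S2101, against 6143 and 6554 with vehicle. The differences were 0.74 ± 0.07 (adjusted p = 5.21e-04, limma) and 0.34 ± 0.07 (0.0237). Mvk, mevalonate kinase, did not pass with either compound (0.30 ± 0.16 with TC and 0.12 ± 0.16 with S2101). Ggps1 leads isoprenoids away from sterols, to the geranylgeranyl groups of proteins. It stood at -0.15 ± 0.13 with TC and 0.04 ± 0.13 with S2101 (adjusted p = 0.546 and 0.907, limma). Its other 3 bright probe sets were above the vehicle mean with TC (0.11, 0.40 and 0.15), and with averaged probe sets the TC difference was 0.09 (adjusted p = 0.721, limma).

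All 3 enzymes from farnesyl diphosphate to lanosterol rose with TC. Fdft1, squalene synthase and the first enzyme committed to sterols, had signals of 10644 with TC and 8832 with S2101, against 6218 and 6277 with vehicle. Its difference was 0.76 ± 0.07 with TC (adjusted p = 3.46e-04, limma) and 0.50 ± 0.07 with S2101 (0.0034), and it was the only 1 of the 3 past the test with S2101. The vehicle arrays lay within 0.0135 of each other on the log2 scale.

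Sqle, squalene epoxidase, which sets much of the pathway's rate, read 6187 with TC and 4824 with S2101, against 4542 and 4287 with vehicle. The difference was 0.48 ± 0.08 with TC (adjusted p = 0.00586, limma) and 0.13 ± 0.08 with S2101 (0.385). Lss closes squalene epoxide to lanosterol. It read 1065 with TC and 751 with S2101, against 621 and 616 with vehicle, a difference of 0.74 ± 0.12 with TC (adjusted p = 0.00648, limma) and 0.26 ± 0.12 with S2101 (0.253). TC was the highest array for all 3 genes.

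Of the 9 enzymes from lanosterol to cholesterol, 7 rose with TC and 4 with S2101. Tm7sf2, a sterol reductase of the endoplasmic reticulum that acts after Cyp51, changed most in the whole list. The arrays gave 1346 with TC and 959 with S2101, against 302 and 302 with vehicle. That is a 3.97-fold increase with TC (log2 difference 1.99 ± 0.13, adjusted p = 5.88e-05, limma) and a 2.87-fold increase with S2101 (1.52 ± 0.13, adjusted p = 3.26e-04), as fitted on log2(signal + 50). Among all 9097 genes its difference ranked 5 with TC and 11 with S2101. Without Tm7sf2 the median of the list was 0.58 with TC and 0.28 with S2101.

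Lbr, the lamin B receptor of the inner nuclear membrane, carries the same sterol reductase activity as Tm7sf2. It read 2192 with TC and 2206 with S2101, against 2475 and 2468 with vehicle. The differences were -0.17 ± 0.08 with TC and -0.16 ± 0.08 with S2101 (adjusted p = 0.254 and 0.312, limma). Both compound arrays lay below both vehicle arrays, by an amount that did not pass the test.

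Cyp51, which demethylates lanosterol, had signals of 4467 with TC and 3449.9 with S2101, against 2782 and 2873 with vehicle. Its difference was 0.65 ± 0.08 with TC (adjusted p = 0.00146, limma) and 0.28 ± 0.08 with S2101 (0.0648). The other bright probe set of Cyp51 differed less, by 0.25 with TC and -0.02 with S2101. Msmo1, the oxidase that starts removal of the methyl groups, read 6433 with TC and 5553 with S2101, against 3614 and 4216 with vehicle. It differed by 0.71 ± 0.10 with TC (adjusted p = 0.00246, limma) and 0.50 ± 0.10 with S2101 (0.0144). Its vehicle arrays were further apart than those of most genes of the list, by 0.22 on the log2 scale.

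Nsdhl, the decarboxylase of the same demethylation complex, read 4348 with TC and 3376 with S2101, against 2472 and 2529 with vehicle. It differed by 0.79 ± 0.08 with TC (adjusted p = 5.21e-04, limma) and 0.43 ± 0.08 with S2101 (0.0129). Hsd17b7, the ketoreductase of that complex, read 1775 with TC and 1295 with S2101, against 1139 and 1073 with vehicle. It passed with TC (0.66 ± 0.10, adjusted p = 0.00503, limma) and not with S2101 (0.22 ± 0.10, adjusted p = 0.255). The other bright probe sets of Hsd17b7 differed by 0.39 and 0.63 with TC and by 0.33 and 0.34 with S2101.

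The last steps were uneven. Ebp, the sterol isomerase, read 7525 with TC and 6419.6 with S2101, against 4671 and 4219 with vehicle. It rose with both compounds (0.75 ± 0.08, adjusted p = 9.00e-04, and 0.53 ± 0.08, adjusted p = 0.00571, limma). Sc5d, the desaturase that follows, read 1645 with TC and 1332 with S2101, against 1103 and 1229 with vehicle. It passed with TC (0.48 ± 0.11, adjusted p = 0.0245) and not with S2101 (0.19 ± 0.11, adjusted p = 0.362, limma). The other bright probe set of Sc5d differed by 0.60 with TC and 0.42 with S2101. Dhcr7, the reductase that makes cholesterol in the last step, did not follow the rest. It read 428 with TC and 646 with S2101, against 592 and 489 with vehicle, so that TC was the lowest array and S2101 the highest. Neither difference passed (-0.30 ± 0.15 and 0.24 ± 0.15, adjusted p = 0.275 and 0.419, limma).

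Of 5 regulators of the pathway, 4 rose with TC and 2 with S2101. Insig1, which retains SCAP and SREBP in the endoplasmic reticulum, had signals of 3760.1 with TC and 3542 with S2101, against 2354 and 2417 with vehicle. The differences were 0.65 ± 0.08 with TC (adjusted p = 0.00168, limma) and 0.56 ± 0.08 with S2101 (0.00368). Insig2 has the same retaining role but is not raised by SREBP. It read 3217 with TC and 3213 with S2101, against 2997 and 3070.1 with vehicle, and did not pass (0.08 ± 0.08 with each compound, adjusted p = 0.581 and 0.615, limma).

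Srebf1 encodes the SREBP forms best known for fatty acid genes. With S2101 it had the largest difference of the 5 regulators, and S2101 was its highest array. Its signals were 2455 with TC and 3464 with S2101, against 1472 and 1697 with vehicle. The differences were 0.62 ± 0.10 with TC (adjusted p = 0.00669, limma) and 1.11 ± 0.10 with S2101 (4.84e-04), and the difference with S2101 ranked 18 of 9097 genes. RefSeq lists 3 starts for the gene, and its only probe set is named by symbol, so forms from different starts are not separated here.

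Srebf2, the SREBP best known for cholesterol genes, read 1678 with TC and 1551 with S2101, against 1249.9 and 1286 with vehicle. It passed with TC (0.39 ± 0.10, adjusted p = 0.0364, limma) and not with S2101 (0.28 ± 0.10, adjusted p = 0.127). The call with TC ended with quantile normalization (adjusted p = 0.0584, limma). The other bright probe set of Srebf2 differed by 0.20 with TC and 0.23 with S2101. Scap, which escorts SREBP to the Golgi, read 1367 with TC and 1006 with S2101, against 963 and 916 with vehicle. It rose with TC (0.52 ± 0.11, adjusted p = 0.019, limma) and lay near the vehicle arrays with S2101 (0.09 ± 0.11, adjusted p = 0.685).

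**Figure D3:**
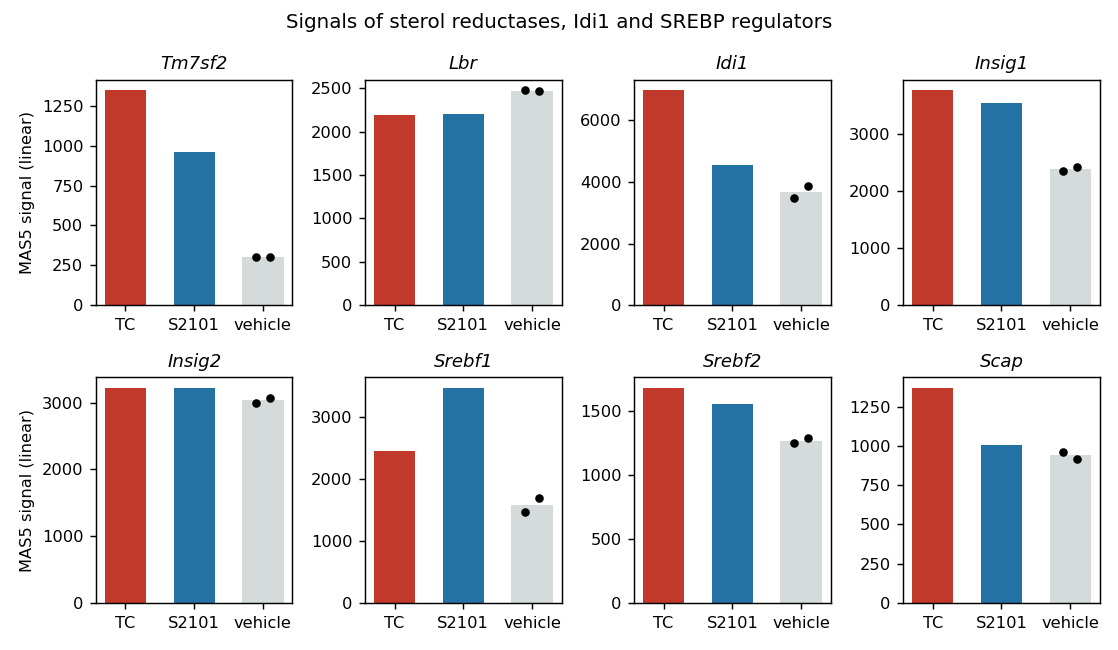
MAS5 signals (linear, from 0) of sterol reductases, Idi1 and SREBP regulators on the TC array (red), the S2101 array (blue) and the vehicle arrays (grey bar, mean, with each of the 2 arrays as a dot). Tm7sf2 and Insig1 are higher with both compounds, Srebf1 is highest with S2101 at 3464, and Lbr lies below vehicle with both.

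None of the 3 transport genes passed with TC or S2101, with median differences of 0.16 and 0.29. Stard4, a cytosolic sterol carrier, read 1083 with TC and 1171 with S2101, against 801 and 912 with vehicle. It did not pass with either compound alone (0.32 ± 0.12 and 0.43 ± 0.12, adjusted p = 0.135 and 0.0644, limma). Npc1 and Npc2 move cholesterol out of the lysosome. Npc1 stood at 0.09 ± 0.14 with TC and 0.29 ± 0.14 with S2101, and Npc2 at 0.16 ± 0.07 and 0.06 ± 0.07, none past the test (adjusted p = 0.181 to 0.754, limma).

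With the TC and S2101 arrays pooled as inhibitor arrays (n = 2) against vehicle (n = 2), 14 of the 27 genes were higher and none lower, against 4.28% and 3.74% of all genes. Stard4 passed here (0.38 ± 0.10, adjusted p = 0.048, limma). Its other bright probe sets lay nearer the vehicle mean, at 0.02 and 0.21 with TC and at 0.03 and -0.03 with S2101. Hmgcs1, Sqle, Lss, Hsd17b7, Sc5d and Scap, which passed with TC, did not pass in this fit, whose error includes the difference between the compounds. Without the TC array the fit compares S2101 alone with vehicle, so it cannot check the pooled result.

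Probe sets that were not chosen to represent a gene gave a further view of the same RNA. Of 22 such probe sets above the median gene signal, in 14 genes of the list, 21 were higher than the vehicle mean with TC and 16 with S2101. Among all 9097 genes tested, each by its main probe set, 4913 were higher with TC and 4715 with S2101. The differences of the 22 probe sets with TC ranged from -0.01 to 0.85, and all 12 in genes past the test with TC were positive. Those genes were picked by a rise on the same TC array, so the 12 are no separate check. The 22 probe sets were not tested and share the labelled RNA of the main probe sets.

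The arrays of the compounds were then compared directly. TC was above S2101 in 21 of the 27 genes, against 54% of all genes, with a median difference of 0.27, against 0.02 over all genes. None of the 27 passed after adjustment (limma, adjusted p = 0.145 to 0.997), where 0% of all genes were higher and 0.033% lower. At an unadjusted p under 0.05, 15 genes of the list were higher with TC, against 4.44% of all genes, and 2 were lower, against 4.27%. With averaged probe sets 4 genes passed, Hmgcs1 (0.39, adjusted p = 0.0202), Fdps (0.40, 0.0268), Sqle (0.36, 0.0459) and, in the opposite direction, Srebf1 (-0.49, 0.0255, limma). Sqle and Srebf1 have 1 probe set each, so averaging left their differences unchanged. Their calls moved with the fit over all genes, and not with new values of these genes.

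The largest difference in the list was that of Idi1, 0.60 with a 95% interval of 0.38 to 0.83. Its other probe set was lower with TC than with S2101, and with averaged probe sets the difference was 0.33. Next among the genes higher with TC were Lss at 0.48 (0.17 to 0.79), Tm7sf2 at 0.47 (0.13 to 0.80) and Hmgcs1 at 0.46 (0.28 to 0.63). Srebf1 (-0.49, -0.75 to -0.23) and Dhcr7 (-0.54, -0.94 to -0.15) were lower with TC. For Insig1 the interval was -0.12 to 0.29, for Insig2 -0.20 to 0.20 and for Lbr -0.22 to 0.21. These intervals hold for 1 array per compound and assume that each varies like the vehicle arrays.

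**Figure D4:**
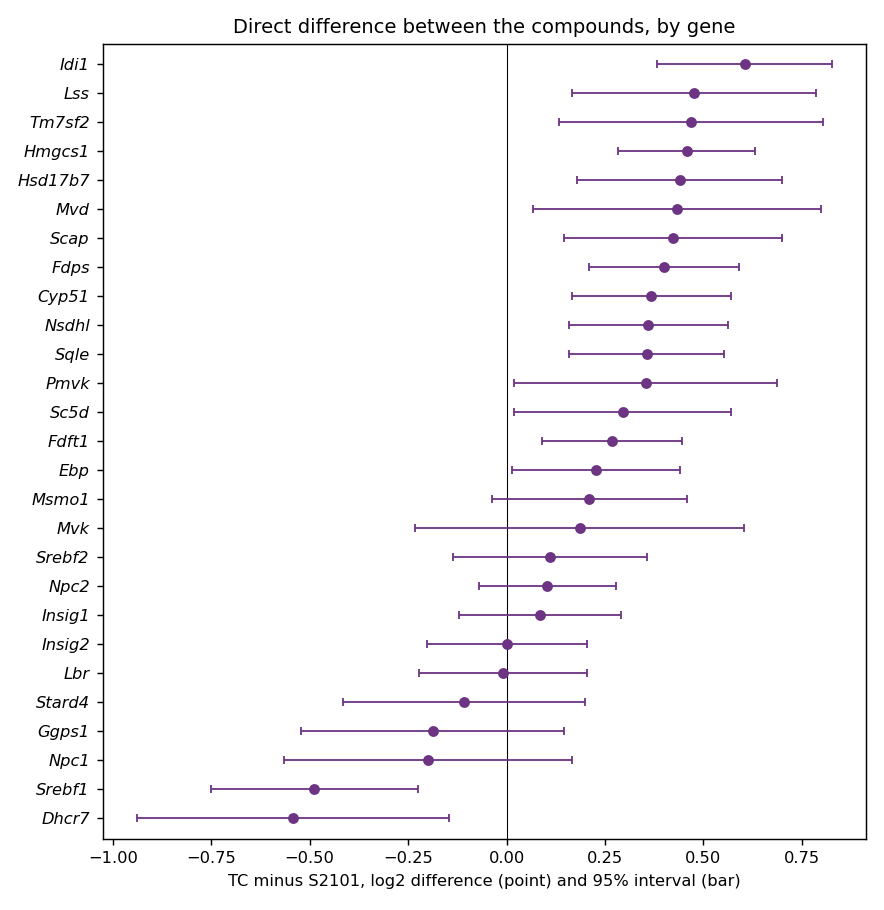
Difference of the TC array minus the S2101 array for each gene (log2 scale, points) with its 95% interval from the fit (bars), sorted from highest to lowest. Intervals of 15 genes lie above 0 and those of Srebf1 and Dhcr7 below 0, and none passed after adjustment over all genes.

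A further list held 47 genes of sterol uptake, sterol sensing, SREBP cleavage, isoprenoid use and transcription. Of these, 37 had a probe set and 31 were tested, and the others were not analysed here. TC raised 1 gene and left 30 short of the test (median difference 0.05), and S2101 raised 3 and left 28 (median 0.03), where 4.36% of all genes were higher with TC and 3.37% with S2101. Mylip, a ubiquitin ligase and an LXR target, read 2138 with TC and 3226 with S2101, against 1479 and 1389 with vehicle. Its difference was 0.56 ± 0.09 with TC (adjusted p = 0.00632, limma) and 1.14 with S2101 (2.01e-04). Lrp1, an endocytic receptor, and Rnf145, a ubiquitin ligase of sterol sensing, rose with S2101 (0.41 and 0.38, adjusted p = 0.0185 and 0.0151, limma) and stood at 0.06 and 0.04 with TC. The SREBP proteases Mbtps1 (-0.05 and 0.03) and Mbtps2 (0.10 and 0.14) did not pass with TC or S2101.

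Of 14 fatty acid genes tested, many of them SREBP targets too, 8 rose with TC and 6 with S2101, with medians of 0.47 and 0.44, and none fell. Over all genes tested 4.36% were higher with TC and 3.37% with S2101. Scd1, the main desaturase, read 23737 with TC and 24328 with S2101, against 14786 and 14020.0 with vehicle, and Fasn, fatty acid synthase, read 3192 and 3293, against 1897 and 1859. The TC minus S2101 difference was -0.04 for each, with intervals of -0.22 to 0.14 for Scd1 and -0.26 to 0.17 for Fasn (adjusted p = 0.926 and 0.923, limma). Mid1ip1, an activator of acetyl-CoA carboxylase, and Fads2, a desaturase, rose with both as well (0.59 each with TC, 0.61 and 0.69 with S2101). Among 7 sterol efflux genes tested, 3 rose with TC and 5 with S2101 (medians 0.54 and 0.52). Lpcat3, a phospholipid acyltransferase, and Nceh1, a cholesteryl ester hydrolase, rose with both (0.61 and 0.54 with TC, 0.58 and 0.52 with S2101). Abcg1, a sterol exporter, passed with S2101 (1.17, adjusted p = 0.00571) and not with TC (0.63, adjusted p = 0.0688, limma). Abca1, the cholesterol exporter and an LXR target, read 962 with TC and 2623 with S2101, against 348 and 303 with vehicle, with a TC minus S2101 log2 difference of -1.40 (adjusted p = 0.0204, limma).

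**Figure D5:**
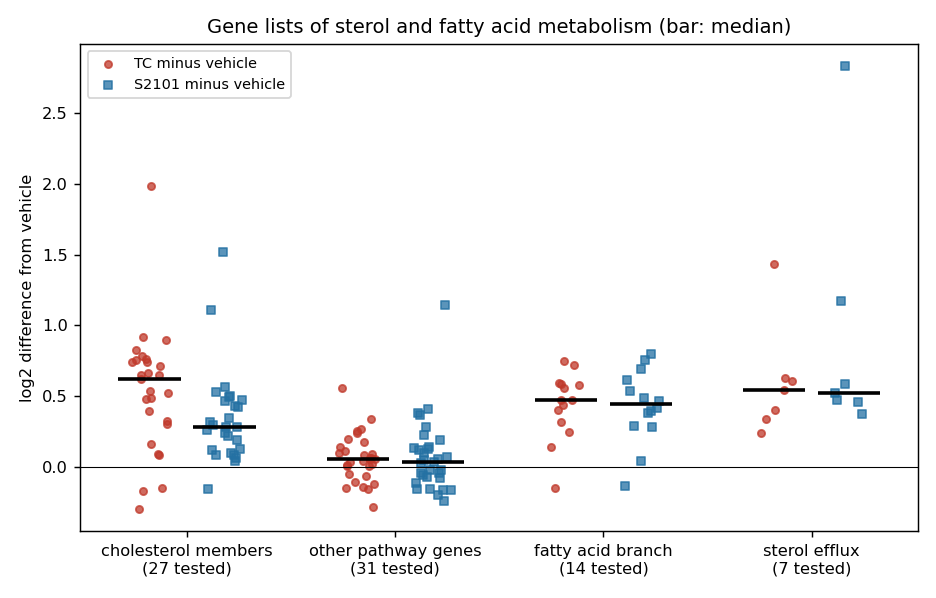
Log2 differences from vehicle (y axis) of the tested genes of 4 lists, with TC (red circles) left of S2101 (blue squares) and a bar at each median. The cholesterol genes have medians of 0.62 with TC and 0.28 with S2101, the fatty acid genes 0.47 and 0.44, and the other pathway genes 0.05 and 0.03.

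The cells matched their label in marker genes. Of 16 myoblast and myotube markers, 14 were above the median gene signal, among them Myod1 (1824 with TC, 1895 with S2101, 1857 and 2000.2 with vehicle), and their summed signal was 163124 with TC and 151918 with S2101, against 155476 and 155812 with vehicle. Of 7 adipocyte markers with a probe set, only Lpl was above the median gene signal, and Adipoq, Cidec and Lep were below 25 on every array. Their summed signal was 969 with TC and 1082 with S2101, against 809 and 1007 with vehicle. Hepatocyte and endothelial markers (3 and 4 with a probe set) were all below the median gene signal, as were 5 of 6 osteoblast and cartilage markers, 5 of 6 leukocyte markers and 3 of 5 neuronal markers. Of the marker genes, Cdh15, a myoblast cadherin, rose with TC and S2101 (0.29 and 0.34), and Actc1, cardiac actin, and Nefl, a neurofilament, fell with S2101 (-0.28 and -0.68). What part cell composition has in the results above was not tested. The LSD1 gene Kdm1a differed by -0.10 with TC and -0.14 with S2101 and did not pass (adjusted p = 0.46 and 0.332, limma). Signals of all probe sets on log2 scale correlated at r = 0.990 between TC and S2101, at 0.990 between the vehicle arrays and at 0.987 to 0.988 between a compound array and a vehicle array.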

How the data were processed

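Total RNA of 4 C2C12 samples was hybridised to Affymetrix arrays, 1 array per sample, from 250 ng per the labels' protocols. The deposited values are MAS5 signal intensity on a linear scale, with a 2% trimmed mean of 500.0 on each array; MAS5 and Affymetrix Expression Console are named in the submitters' processing notes. No detection call entered any step. Of 45101 probe sets, 34945 carried 1 gene symbol in the platform annotation, 932 several and 9160 none, and 64 were array controls.

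Each gene took its brightest probe set, and 9097 of 18193 genes at or above the median mean signal were tested. The test ran on log2(signal + 50), an offset equal to 10% of the trimmed mean. A linear model with an intensity trend in the variance (limma 3.58.1, R 4.3.3) was fitted across all genes with 3 groups (1 residual degree of freedom plus a prior of 8.37) and with 2 groups (2 plus 8.08), with Benjamini-Hochberg adjustment at 0.05. A compound's single array borrows its spread from vehicle. The scripts were tested on simulated data. Promoter sequences are RefSeq's (GRCm38.p6). All 27 gene identifiers matched the RefSeq table. The members and lists were chosen with earlier results of these data known. All genes of the main list are named, and of the other lists up to 4 past the test plus Abca1 and Scd1, with a few others named after their values were seen. Alternatives were other offsets, filters, normalization, variance models, averaged probe sets and leaving out each array.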

Additional observations from a re-analysis of the deposited data

Results flagged for a closer look

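Ggps1 and Dhcr7 lay below both vehicle arrays with TC and above both with S2101. The TC minus S2101 difference was -0.19 for Ggps1 and -0.54 for Dhcr7, and neither passed the direct test (adjusted p = 0.747 and 0.464, limma). For Ggps1 this rests on 1 of 4 bright probe sets. The other 3 were above the vehicle mean with TC, by 0.11, 0.40 and 0.15, and with averaged probe sets the TC minus S2101 difference was 0.04. Each compound has 1 array. Dhcr7 had the widest gap between the vehicle arrays of any gene of the list, 0.252 on the log2 scale.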

How the results depend on the processing

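Counts of the 27 genes past the test depended on the filter on dim genes and on the trend in the variance. The filter sets both the genes the variance is fitted to and the number adjusted over (18193 without it, 9097 with it), and which of these lowers the count was not tested. With no filter on dim genes 1 passed with TC, 0 with S2101 and 4 with both inhibitors pooled, against 19, 8 and 14. Without an intensity trend the counts were 2, 2 and 6. With a filter at the 75th percentile 19 of the 27 genes were tested, and 9 passed with both inhibitors pooled. With averaged probe sets 4 passed between TC and S2101, against 0. Among these, Sqle and Srebf1 have 1 probe set each, so their differences did not change. Leaving out the TC or the S2101 array turns the pooled fit into the fit of the other compound alone. The list medians were then 0.28 and 0.62, the same as with S2101 and with TC, so these runs cannot check the pooled result. Leaving out vehicle array 1 or 2 gave pooled medians of 0.44 and 0.47, against 0.44 with all arrays. Other offsets and quantile normalization left 18 or 19 genes with TC and 8 with S2101, and under no alternative run did a gene past the test change direction. The differences themselves do not depend on the filter or the trend. Without a vehicle array the fit with 3 groups has no residual degree of freedom, so it gave values without a test. No paired analysis was possible because the compound groups hold 1 array each and share fewer than 2 replicate numbers with vehicle. Detection calls were not used, so signal over background could not be judged gene by gene.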
